A study of Mus musculus with 6 samples.

Results

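Gt(ROSA)26Sor, the Rosa26 locus of the mouse, and 8 protein-coding genes on the same chromosome were followed in whole pancreas of mouse embryos at stage e16.5. The 9 genes are Gt(ROSA)26Sor, Thumpd3, Setd5, Alox5, Tmem72, Plbd1, Pik3c2g, Bcat1 and Arntl2, of 54735 gene symbols in the count tables. They were taken by name. The list was selected on fold changes and adjusted p-values of the same RARdn and control libraries and on place around Rosa26. Their differences are therefore given as a description and support nothing. All 9 passed the filter on low counts.

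The study concerns retinoic acid signalling in the progenitors of islet cells. RARdn pancreata (n = 3) carried Neurog3:cre together with RARdnfl/fl, and control pancreata (n = 3) carried Neurog3:cre alone. All 6 came from mice on a mixed C57Bl6/129SV background, and all carried the cre. Neurog3 is switched on in endocrine progenitors, so cre is driven in a small part of the organ, whereas RNA was taken from the whole organ. RARdn commonly stands for a retinoic acid receptor with dominant-negative action. The labels give neither its sequence nor its position, and the counts cannot separate reads of the allele from those of the mouse receptor genes. Among these, chosen after their values were seen, Rara was at 45.7 ± 1.70 CPM in RARdn and 32.8 ± 1.29 CPM in control libraries (adjusted p = 0.0256, edgeR) and Rarg at 26.9 ± 2.02 and 18.9 ± 1.44 CPM (0.0438). Neither was called without RARdn 2 or control 1, 2 or 3, nor Rarg without RARdn 1, with adjusted p-values up to 0.141 for Rara and 0.201 for Rarg. Nothing in the labels says whether embryos shared a litter or a day, so p-values reflect only the spread between these libraries, which could be technical.

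Counts in genes were 35256531 to 52015498 in the RARdn libraries and 38572573 to 44735721 in the control libraries. Reads outside genes took 2.90% to 5.30% of all reads in the RARdn libraries and 7.60% to 8.99% in the control libraries, without overlap. The groups were also unequal in sex-linked transcripts, with Xist at 0.103, 0.178 and 0.230 CPM in RARdn 1, 2 and 3, against 1158, 0.312 and 1118 CPM in control 1, 2 and 3. The Y-linked Ddx3y was at 47.3, 50.7 and 48.3 CPM in RARdn 1, 2 and 3, against 0, 49.8 and 0 CPM in control 1, 2 and 3, so control 2 alone of the controls resembled the RARdn libraries in both. A fit with a term for Xist, used below, therefore compares the RARdn libraries mainly with control 2. The 12 acinar markers that identify exocrine pancreas summed to 17968 to 91780 CPM in RARdn and 49465 to 55142 CPM in control libraries, and the 9 endocrine markers to 2409 to 3123 and 3010 to 3412 CPM, so both pancreatic compartments were present in every library.

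Rosa26 is a non-coding gene that was found through a gene trap, is transcribed in most mouse tissues and is widely used as a site for inserted transgenes. Floxed alleles placed there stay silent until cre removes a stop signal. A dominant-negative retinoic acid receptor allele of this kind is known, although the labels do not say whether it is the one used. Thumpd3 and Setd5 flank Rosa26, and the other 6 genes lie at higher coordinates of the same chromosome, towards its end.

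Positions are from GENCODE M21 on GRCm38. Gt(ROSA)26Sor (ENSMUSG00000086429.9) runs on the minus strand at chr6:113067428-113077333. Setd5 starts only 32 bases away on the plus strand, at chr6:113077365-113153435. Thumpd3, at chr6:113046225-113068273 on the plus strand, runs into the last 846 bases of Gt(ROSA)26Sor. The strand setting of the counting is not given in the sources used here, so reads in that overlap cannot be assigned with certainty. From the start of Gt(ROSA)26Sor, the starts of the other genes lay at 3.38 Mb (Alox5, chr6:116410077-116461178), 3.64 Mb (Tmem72, chr6:116679063-116716913), 23.6 Mb (Plbd1, chr6:136612070-136661928), 26.5 Mb (Pik3c2g, chr6:139587221-139969284), 32.0 Mb (Bcat1, chr6:144993835-145076184) and 33.7 Mb (Arntl2, chr6:146796055-146833529). Plbd1, Pik3c2g and Bcat1 overlap annotated predicted genes and carry the same doubt about strand.

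RefSeq promoter windows on GRCm38.p6, from 250 bases before to 50 after a gene start, were held for 8 of the 9 genes, 10 windows in all. Those of 2 pairs that differed in opposite directions between the groups are shown with that of Plbd1, so that they can be set side by side. The pairs are Alox5 with Tmem72, 256 kb apart, and Bcat1 with Arntl2, 1.72 Mb apart. Other tested genes lie between the members of each pair, 4 in the first and 19 in the second. All are written 5′ to 3′ on the gene's own strand. Capitals mark AGGTCA, the half-site of nuclear receptors, and CACGTG, the E-box that clock proteins of the Arntl2 family read; both were searched on both strands.
Alox5, chr6:116461129-116461428, minus strand: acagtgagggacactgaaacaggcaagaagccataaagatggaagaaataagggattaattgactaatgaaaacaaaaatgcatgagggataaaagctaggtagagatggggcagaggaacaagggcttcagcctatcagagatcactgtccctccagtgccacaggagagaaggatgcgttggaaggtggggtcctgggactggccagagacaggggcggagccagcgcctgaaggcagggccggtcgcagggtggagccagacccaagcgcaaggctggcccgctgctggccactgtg
Tmem72, chr6:116716709-116717008, minus strand: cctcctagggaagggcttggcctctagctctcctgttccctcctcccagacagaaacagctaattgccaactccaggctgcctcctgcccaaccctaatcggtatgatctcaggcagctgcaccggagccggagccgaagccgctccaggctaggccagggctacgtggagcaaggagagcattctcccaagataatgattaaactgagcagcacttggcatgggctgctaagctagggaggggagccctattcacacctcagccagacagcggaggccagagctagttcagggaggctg
Plbd1, chr6:136661844-136662143, minus strand: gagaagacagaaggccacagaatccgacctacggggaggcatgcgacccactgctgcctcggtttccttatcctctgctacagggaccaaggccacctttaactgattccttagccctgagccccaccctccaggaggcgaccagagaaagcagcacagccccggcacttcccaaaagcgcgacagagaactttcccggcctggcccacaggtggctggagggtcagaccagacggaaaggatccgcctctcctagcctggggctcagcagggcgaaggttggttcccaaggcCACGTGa
Bcat1, chr6:145076108-145076407, minus strand: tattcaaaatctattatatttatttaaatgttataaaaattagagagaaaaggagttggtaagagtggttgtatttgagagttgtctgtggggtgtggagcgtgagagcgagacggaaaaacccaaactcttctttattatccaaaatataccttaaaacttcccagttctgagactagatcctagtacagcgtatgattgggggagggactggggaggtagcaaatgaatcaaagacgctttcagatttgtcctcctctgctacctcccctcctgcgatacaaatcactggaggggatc
Bcat1, second start, chr6:145048763-145049062, minus strand: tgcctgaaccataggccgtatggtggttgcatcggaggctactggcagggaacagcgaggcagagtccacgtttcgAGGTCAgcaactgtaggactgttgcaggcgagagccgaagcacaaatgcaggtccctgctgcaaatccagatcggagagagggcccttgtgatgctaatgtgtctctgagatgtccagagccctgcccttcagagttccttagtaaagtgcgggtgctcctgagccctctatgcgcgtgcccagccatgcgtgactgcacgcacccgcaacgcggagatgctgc
Arntl2, chr6:146805280-146805579, plus strand: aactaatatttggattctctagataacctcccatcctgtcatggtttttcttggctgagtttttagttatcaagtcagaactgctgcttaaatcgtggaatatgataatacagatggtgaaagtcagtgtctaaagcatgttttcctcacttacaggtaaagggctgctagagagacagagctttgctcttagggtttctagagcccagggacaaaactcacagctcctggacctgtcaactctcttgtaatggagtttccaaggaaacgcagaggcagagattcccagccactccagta
AGGTCA stood in 1 of the 10 windows, that of the second Bcat1 start, and in 16.3% of all 32851 windows of the table. CACGTG stood in 1 of the 10, that of Plbd1, and in 7.15% of all windows. Direct repeats of AGGTCA, written AGGTCANAGGTCA, AGGTCANNAGGTCA and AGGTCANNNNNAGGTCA, stood in none of the 10 and in 0.0396%, 0.00913% and 0.00913% of all windows. The RefSeq windows of Arntl2, Setd5, Pik3c2g and the second Bcat1 start lie inside the GENCODE genes rather than at their annotated starts.

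Of the 9 genes, 4 were higher and 3 lower in RARdn pancreas at an adjusted p under 0.05 (edgeR's quasi-likelihood test), and Thumpd3 and Setd5 did not pass. These calls are part of how the genes were chosen. Over all 19070 genes tested, 4.02% were called, 1.37% as higher and 2.65% as lower. The higher genes were Tmem72, Plbd1, Pik3c2g and Bcat1, and the lower ones Gt(ROSA)26Sor, Alox5 and Arntl2. The median log2 fold change over all genes tested was 0.000513, and levels below are edgeR's scaled CPM.

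**Figure D1:**
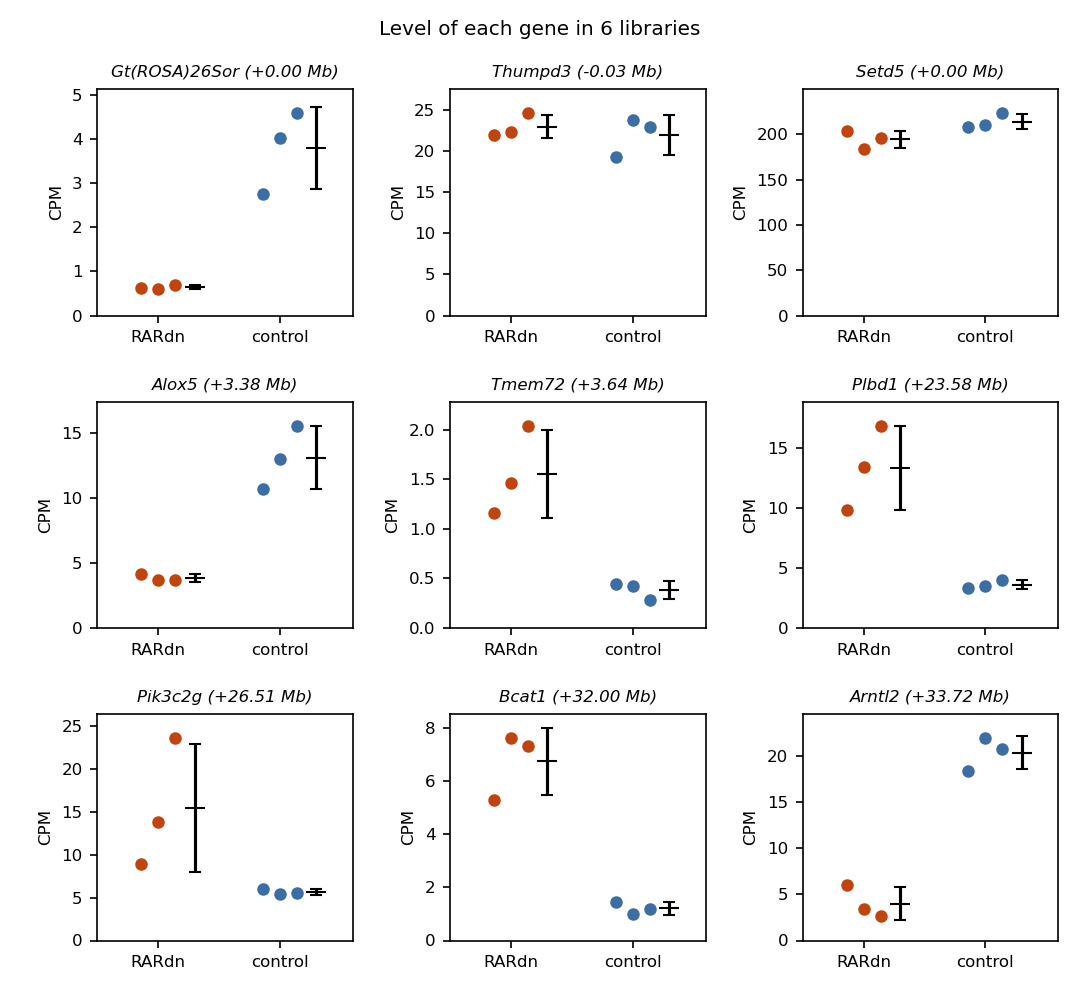
Level of the 9 genes in CPM (y axis, from 0) in each RARdn and control library, with the mean and SD as a bar beside the points; distances from the start of Gt(ROSA)26Sor are in Mb. The groups overlap only for Thumpd3, and of the other 8 Setd5 has the narrowest gap relative to its level.

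At the locus itself, the Rosa26 transcript was scarce in RARdn pancreas. Gt(ROSA)26Sor was at 0.633, 0.612 and 0.691 CPM in RARdn 1, 2 and 3, against 2.77, 4.03 and 4.58 CPM in control 1, 2 and 3. The groups did not overlap, and the 3 RARdn libraries lay close together while the controls spread more. In raw reads these were 37, 31 and 21 counts in RARdn, against 106, 181 and 198 counts in control libraries. At such low counts, the closeness of the RARdn libraries says little about how even the transcript was. The means were 0.645 ± 0.0413 CPM in RARdn and 3.79 ± 0.932 CPM in control libraries (SD, n = 3 each), with a log2 fold change of -2.56 (SE 0.28).

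Thumpd3, a tRNA methyltransferase gene, differed by less than the spread between libraries. It was at 22.0, 22.3 and 24.6 CPM in RARdn and at 19.3, 23.8 and 22.97 CPM in control libraries, with a log2 fold change of 0.06 (SE 0.12). Setd5, a SET-domain chromatin regulator whose loss impairs neural development, was at 203, 184 and 196 CPM in RARdn and at 209, 210 and 223 CPM in control libraries. All RARdn libraries lay below all controls, and the log2 fold change was -0.14 (SE 0.11). The groups did not overlap for 8 of the 9 genes, all but Thumpd3, and for 27.6% of all genes tested.

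Ratios of counts need no scaling between libraries. For every 100 Setd5 counts there were 0.332 ± 0.0208 Gt(ROSA)26Sor counts in RARdn and 1.77 ± 0.388 in control libraries, and for every 100 Thumpd3 counts 2.81 ± 0.0671 and 17.1 ± 2.80 (SD, n = 3 each). Thumpd3 counts per 100 Setd5 counts were 11.8 ± 0.900 in RARdn and 10.3 ± 1.05 in control libraries. The difference at the locus was thus seen in the non-coding transcript and was far smaller in the 2 genes beside it, each of which has more reads.

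Genes that are not protein-coding, as Gt(ROSA)26Sor is not, were called lower more often than others across the genome. On the other autosomes, 293 of 3565 such genes (8.22%) were called lower in RARdn pancreas, compared with 149 of 13733 protein-coding genes (1.08%). The part of this, and of the smaller share of reads outside genes, in the difference of Gt(ROSA)26Sor was not tested.

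No other gene next to the locus passed. Leaving out Thumpd3 and Setd5, edgeR called 0 of the 8 other genes among the 5 nearest tested on each side (Oxtr, Gm15519, Rad18, Srgap3, Lhfpl4, Mtmr14, Gm16161 and Brpf1). An unadjusted p under 0.05 was reached by 1 of them, and 1 was called with DESeq2. Srgap3 was at 41.7 ± 5.32 CPM in RARdn and 49.9 ± 4.93 CPM in control libraries (adjusted p = 0.256, edgeR). The oxytocin receptor gene Oxtr was at 1.92 ± 0.439 CPM in RARdn and 0.959 ± 0.187 CPM in control libraries (adjusted p = 0.0957), and was called by edgeR without RARdn 3 (0.0361) and by DESeq2 (0.0352). Between Setd5 and Alox5, 57 genes were tested and edgeR called 0, with 8 at an unadjusted p under 0.05 and 2 called by DESeq2.

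**Figure D2:**
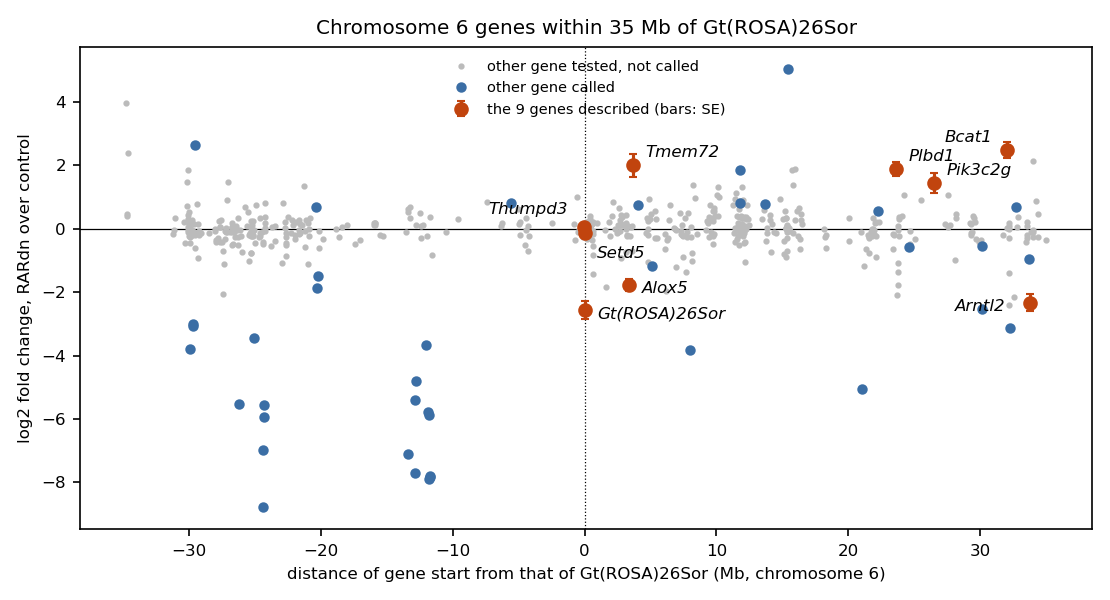
Log2 fold change of RARdn over control (y axis) against the distance of each gene's start from that of Gt(ROSA)26Sor (x axis, Mb) for the 561 genes tested within 35 Mb on chromosome 6. The 9 genes are labelled with their SE, and both signs occur close to and far from the locus.

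Alox5, encoding 5-lipoxygenase, the enzyme that starts leukotriene synthesis, was lower in RARdn pancreas. It was at 4.15, 3.67 and 3.65 CPM in RARdn 1, 2 and 3, against 10.7, 12.96 and 15.5 CPM in control 1, 2 and 3 (log2 fold change -1.77, SE 0.18). The 3 RARdn libraries were nearly equal, and every control was far above them. The 13 macrophage and neutrophil markers summed to 147 to 207 CPM in RARdn and 78.3 to 128 CPM in control libraries. Of the 11 tested, Csf1r rose, none was called lower and the other 10 did not pass. The median log2 fold change of the 11 was 0.81, from 0.10 (Cd68) to 3.16 (Mpo). Lyz2, at a log2 fold change of 1.11 and without overlap of the groups, was just short of a call (adjusted p = 0.0510, edgeR). The neutrophil marker Ly6g stayed at or below 0.0684 CPM in every library. The part of these cells in the difference of Alox5 was not tested. In bulk RNA, fewer cells of a type and less RNA per cell cannot be told apart.

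Tmem72, encoding a transmembrane protein of little known function, lies 256 kb beyond Alox5 and was higher. It was at 1.16, 1.46 and 2.04 CPM in RARdn 1, 2 and 3, against 0.444, 0.423 and 0.278 CPM in control 1, 2 and 3 (log2 fold change 2.01, SE 0.37). The groups did not overlap, although the controls rest on only 12 to 19 counts each. Between Alox5 and Tmem72, 4 genes were tested (Gm5580, Zfp422, Depp1 and Rassf4) and edgeR called 0, with 1 at an unadjusted p under 0.05 and 0 called by DESeq2. In the adult Tmem72 is best known from kidney. The 8 kidney markers summed to 70.8 to 114 CPM in RARdn and 114 to 135 CPM in control libraries, 6 stayed under 1 CPM in every library, and none of the 3 tested passed. Tmem72 was not called by edgeR without RARdn 2 or control 1, 2 or 3 (adjusted p = 0.0714, 0.0596, 0.0934 and 0.0843) or with a term for Xist (0.328), with log2 fold changes of 1.83 to 2.13 in these fits.

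Plbd1, a phospholipase B-like gene first described in human neutrophils, was higher in RARdn pancreas. It was at 9.78, 13.4 and 16.8 CPM in RARdn 1, 2 and 3, against 3.31, 3.50 and 4.01 CPM in control 1, 2 and 3 (log2 fold change 1.88, SE 0.22). The lowest RARdn library was at more than every control. The myeloid marker sum given above was higher in every RARdn library than in every control. It was at 207, 200 and 147 CPM in RARdn 1, 2 and 3, the opposite order to Plbd1. Single markers had other orders, with Csf1r at 47.4, 66.7 and 47.6 CPM and Lyz2 at 52.7, 54.9 and 46.8 CPM in RARdn 1, 2 and 3. The part of myeloid cells in the difference of Plbd1 was not tested. With a term for Xist, Plbd1 was not called (adjusted p = 0.0951, edgeR).

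Pik3c2g, a class II phosphoinositide 3-kinase gene expressed mainly in liver and pancreas, had the widest relative spread over RARdn libraries of the 9. It was at 8.89, 13.9 and 23.6 CPM in RARdn 1, 2 and 3, against 6.003, 5.39 and 5.603 CPM in control 1, 2 and 3 (log2 fold change 1.44, SE 0.31). The coefficient of variation was 48.4% in RARdn and 5.49% in control libraries. The acinar sum had the same order as Pik3c2g, Plbd1 and Tmem72 over the RARdn libraries, at 17968, 70520 and 91780 CPM in RARdn 1, 2 and 3, and the opposite order to Alox5 and Arntl2. RARdn 1 had a lower acinar sum than any control and more Pik3c2g than any control. The 8 liver markers had the opposite order, summing to 1557, 611 and 454 CPM in RARdn 1, 2 and 3, against 389 to 418 CPM in control libraries. Ttr made up most of the control sums, and without it, a choice made after seeing the data, the sums were 1273, 293 and 33.2 CPM in RARdn 1, 2 and 3, against 25.7 to 35.4 CPM in control libraries, so that RARdn 3 was within the control range. Of the 8, Alb and Ahsg were called higher, and the groups overlapped for Ahsg. The part of both lists in these members was not tested. Pik3c2g was not called by edgeR without RARdn 2 or control 1, 2 or 3 (adjusted p = 0.0945, 0.0963, 0.158 and 0.136), with at least 1 CPM in 3 libraries (0.0670), with a term for Xist (0.331) or by limma-voom (0.0861), and its log2 fold change without RARdn 3 was 1.01.

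Bcat1, the cytosolic branched-chain amino acid aminotransferase gene, had the largest increase of the 9. It was at 5.30, 7.61 and 7.34 CPM in RARdn 1, 2 and 3, against 1.46, 0.980 and 1.18 CPM in control 1, 2 and 3. The RARdn mean was 5.59-fold that of control (log2 2.48, SE 0.24), and the lowest RARdn library stood well above the highest control. Arntl2, whose protein BMAL2 pairs with CLOCK in the circadian oscillator, lies 1.72 Mb beyond Bcat1 and was lower. It was at 5.97, 3.45 and 2.60 CPM in RARdn 1, 2 and 3, against 18.4, 21.9 and 20.8 CPM in control 1, 2 and 3 (log2 fold change -2.33, SE 0.27). Every RARdn library was far below every control, and RARdn 1 was the least low. Between Bcat1 and Arntl2, 19 genes were tested and edgeR called 3 (15.8%, against 4.02% of all genes), 1 higher and 2 lower. An unadjusted p under 0.05 was reached by 9 of the 19, and 3 were called by DESeq2. Bcat1, Arntl2, Alox5 and Gt(ROSA)26Sor were called under all 14 alternatives run. These alternatives refit the counts on which the genes were chosen, so the repeated calls add no support.

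**Figure D3:**
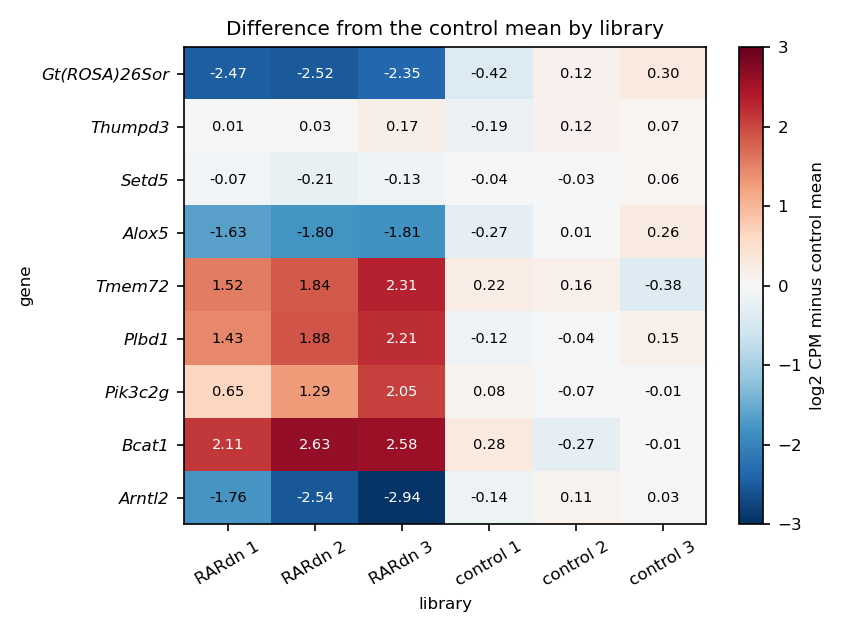
Log2 CPM of each gene in each library minus the mean of the 3 control libraries, on a colour scale from -3 to 3. Gt(ROSA)26Sor, on only 37, 31 and 21 counts, and Alox5 are nearly even over the RARdn libraries, whereas Pik3c2g spans 0.65 to 2.05 and Arntl2 -2.94 to -1.76.

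Compared per kilobase of exon, the order of levels also differed between the groups. Setd5 was first in both, at 10.6 ± 0.526 CPM per kb in RARdn and 11.7 ± 0.438 in control libraries. In RARdn pancreas Plbd1 (5.06 ± 1.34) and Thumpd3 (3.51 ± 0.217) followed, and their libraries overlapped. Then came, by mean, Pik3c2g (1.22 ± 0.592), Alox5 (0.932 ± 0.0693), Bcat1 (0.724 ± 0.136) and Arntl2 (0.704 ± 0.308). Among these, the libraries of every pair overlapped except those of Alox5 and Bcat1. Every Alox5 library was above every Bcat1 library. In control pancreas Arntl2 (3.58 ± 0.316), Thumpd3 (3.36 ± 0.367) and Alox5 (3.18 ± 0.586) came next and lay within their spread, with Plbd1 (1.37 ± 0.136), Pik3c2g (0.448 ± 0.0246) and Bcat1 (0.130 ± 0.0259) further down and apart from each other. Gt(ROSA)26Sor was at 0.381 ± 0.0244 CPM per kb in RARdn and 2.24 ± 0.550 in control libraries. Tmem72 was last in both, at 0.0905 ± 0.0260 CPM per kb in RARdn and 0.0222 ± 0.00527 in control libraries.

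Flanking genes were set beside the members after their values had been seen. Of the 14 protein-coding genes nearest to a member on either side, edgeR called 2 (14.3%, against 2.68% of all protein-coding genes tested). An unadjusted p under 0.05 was reached by 4 of the 14, and 3 were called by DESeq2. Stk38l, a kinase gene of the Hippo pathway family 71.1 kb before Arntl2, fell to 8.60 ± 1.53 CPM in RARdn, against 16.55 ± 1.73 CPM in control libraries (log2 -0.94, SE 0.16, adjusted p = 0.0202, edgeR). Cxcl12, a chemokine gene 452 kb beyond Tmem72, rose to 209 ± 34.4 CPM in RARdn, against 124 ± 11.99 CPM in control libraries (log2 0.75, SE 0.15, adjusted p = 0.0342). Without RARdn 2, control 2 or control 3, edgeR called neither, with adjusted p-values of 0.0729 to 0.0892 for Stk38l and 0.0955 to 0.147 for Cxcl12, and Cxcl12 was also not called without control 1 (0.0714).

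Within 35 Mb of Gt(ROSA)26Sor, 46 of 561 genes tested were called (8.20%), 14 higher and 32 lower. The count was 13 without RARdn 2, 106 without RARdn 3, and 24, 9 and 26 without control 1, 2 and 3. By distance, calls numbered 1 of 39 genes under 1 Mb, 3 of 52 at 1 to 5 Mb, 17 of 203 at 5 to 20 Mb, 25 of 267 at 20 to 35 Mb and 25 of 436 farther away on chromosome 6. The edgeR share was lowest under 1 Mb, where it rests on 1 call, that of Gt(ROSA)26Sor, a gene chosen on this contrast. DESeq2 called 2 of these 39 genes, so the order of the classes is only a description. On the other autosomes 669 of 17298 genes (3.87%) were called. Over the whole of chromosome 6 the edgeR share was 7.12%, the highest of the 19 autosomes, followed by 6.02% on chromosome 9, and 6.48% with the 9 genes left out. This rank did not hold by DESeq2, which called 112 of the 997 genes on chromosome 6. Its share was larger on chromosomes 1 (140 of 1158), 3 (117 of 986) and 9 (135 of 1064). These comparisons used the contrast that chose the genes, and position was not tested.

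**Figure D4:**
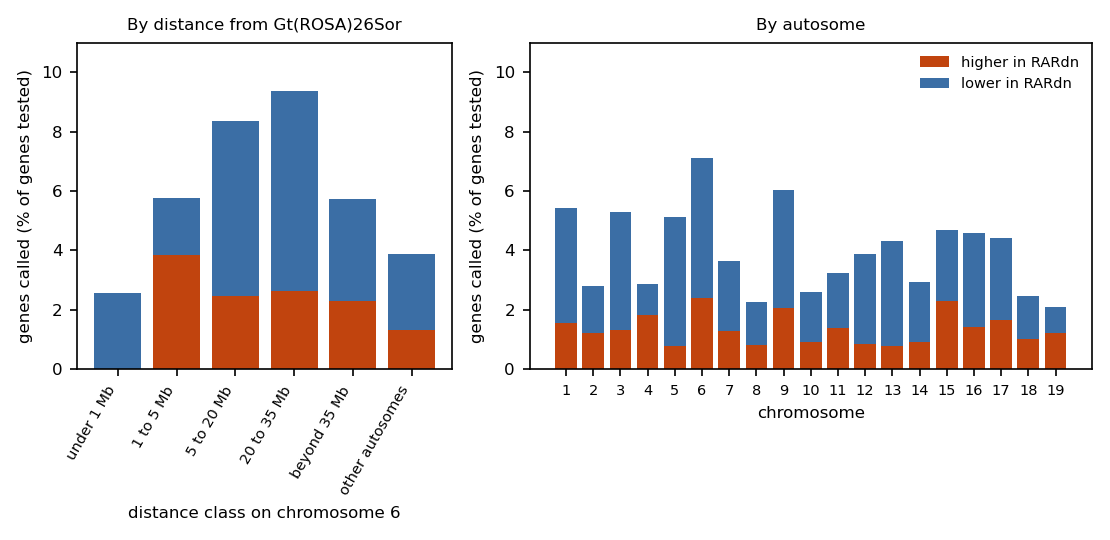
Share of tested genes called by edgeR (y axis, percent, from 0), split into higher and lower in RARdn, by distance class on chromosome 6 (left) and by autosome (right). Under 1 Mb the share is 2.56%, at 20 to 35 Mb 9.36%, and chromosome 6 as a whole stands at 7.12%.

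Most of these calls were predicted genes. Without the 9 genes, 39 were called within 35 Mb, of which 25 had predicted-gene names and all 25 were lower. Of the 14 others, 10 were higher and 4 lower. Among protein-coding genes within 35 Mb, 22 of 424 were called (5.19%), and 16 of 416 (3.85%) with the members left out, compared with 358 of 13733 (2.61%) on the other autosomes. Named genes included Actg2, an enteric smooth muscle actin (14.5 ± 8.65 CPM in RARdn and 2.33 ± 0.831 CPM in control libraries, adjusted p = 0.0165). Ret, the receptor gene for GDNF ligands, fell to 61.2 ± 16.9 CPM in RARdn, against 139 ± 17.5 CPM in control libraries (log2 -1.18, SE 0.20, adjusted p = 0.0202, edgeR). Rassf8, Lrrn1, Prickle2, P3h3, Pzp, Dynlt1-ps1 and Cd4 also rose, and Etnk1 fell. Each of the 12 non-members named here and above lost its edgeR call without control 2 and without control 3, and 10 of them, all but Actg2 and Ret, also without RARdn 2. Pzp, made by liver, was at 4.72 ± 4.97 CPM in RARdn and 0.140 ± 0.122 CPM in control libraries.

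Genes that share a pathway or family with the members mostly did not pass. Of 71 such genes tested in 7 lists, edgeR called 1 (1.41%, against 4.02% of all genes and 2.68% of protein-coding genes). An unadjusted p under 0.05 was reached by 10, and 3 were called with DESeq2. That gene was Ivd, the isovaleryl-CoA dehydrogenase of leucine breakdown, which fell to 85.0, 74.7 and 92.2 CPM in RARdn 1, 2 and 3, against 121, 120 and 120 CPM in control 1, 2 and 3 (log2 -0.52, SE 0.11, adjusted p = 0.0368, edgeR). Without any 1 library other than RARdn 3, Ivd was not called (adjusted p = 0.0663 to 0.172), and without RARdn 3 edgeR called 10 partners. The other 12 tested genes of branched-chain amino acid transport and breakdown did not pass, and the median log2 fold change of the 13 was -0.23. Slc7a5, the most abundant of those that did not pass and a carrier of large neutral amino acids, was at 216 ± 90.9 CPM in RARdn and 240 ± 12.6 CPM in control libraries (adjusted p = 0.767). Without RARdn 3 its log2 fold change was -0.55 (adjusted p = 0.0228), and without RARdn 1 it was 0.08 (0.880).

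In the other lists edgeR called 0 partners. Among 18 clock genes, 1 was at an unadjusted p under 0.05, 1 was called by DESeq2, and the median log2 fold change was 0.06. The gene at an unadjusted p under 0.05 was Clock, named after its values were seen, at 53.7, 43.3 and 47.7 CPM in RARdn 1, 2 and 3, against 61.4, 66.2 and 73.2 CPM in control 1, 2 and 3 (log2 fold change -0.47, SE 0.11, adjusted p = 0.0564, edgeR). Its groups did not overlap, and edgeR called it without RARdn 3 (0.0438). Per1 was at 76.0 ± 7.03 CPM in RARdn and 73.2 ± 1.07 CPM in control libraries (adjusted p = 0.789). Among 10 leukotriene and related lipid genes, 2 were at an unadjusted p under 0.05 and 1 was called by DESeq2. Their median log2 fold change was 0.55, and the 2 genes differed in opposite directions. Pla2g4a, named after its values were seen, was higher, at 7.54 ± 0.734 CPM in RARdn and 4.39 ± 0.966 CPM in control libraries (adjusted p = 0.0647, edgeR). Lta4h, which makes leukotriene B4, was lower, at 58.3 ± 7.34 CPM in RARdn and 75.7 ± 2.62 CPM in control libraries (adjusted p = 0.0971, edgeR). It passed without RARdn 3 (0.0346). Among 11 phosphoinositide 3-kinase genes, 3 were at an unadjusted p under 0.05 and 0 were called by DESeq2. The regulatory subunit gene Pik3r1 was at 100.2 ± 2.18 CPM in RARdn and 116 ± 0.635 CPM in control libraries (adjusted p = 0.213). Among 13 chromatin genes listed with Setd5, 1 was at an unadjusted p under 0.05, and among 5 THUMP-domain and tRNA-modification genes 0 were, with 0 called by DESeq2 in both. The acetyltransferase Nat10 was at 47.2 ± 6.90 CPM in RARdn and 53.0 ± 6.36 CPM in control libraries (adjusted p = 0.505). Plbd2, the paralog of Plbd1, was at 59.4 ± 5.46 CPM in RARdn and 61.7 ± 3.37 CPM in control libraries (adjusted p = 0.789).

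**Figure D5:**
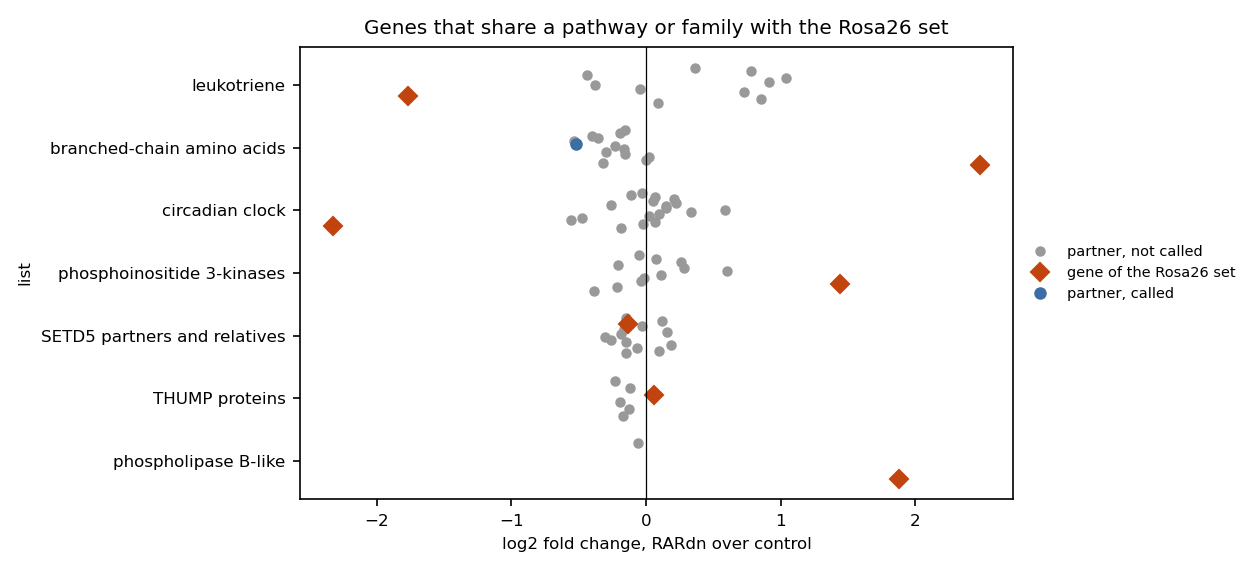
Log2 fold change of RARdn over control (x axis) for the 7 lists of genes that share a pathway or family with a member (rows); diamonds are the members and circles their partners. Of the partners, Ivd alone was called by edgeR, and most circles lie near 0 while 5 of the 7 diamonds do not.

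Over the 6 libraries, the genes whose log2 CPM followed Gt(ROSA)26Sor most closely, among genes of at least 5 CPM with no predicted-gene name, were Vps13a (Pearson r = 0.99988), Akap9 (0.997), Mycbp2 (0.997), Alox5 (0.995) and Ubr4 (0.995). The most opposed were Mkl1 (-0.995), S1pr2 (-0.994), Cdhr2 (-0.993), Adam12 (-0.993) and Mfsd1 (-0.992). Alox5 alone of these is on chromosome 6. The 6 points share the split into groups, so these values describe that split and have no test.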

How the data were processed

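Per the labels, RNA was extracted from whole pancreas of 6 samples and sequenced from standard Illumina libraries. The deposited values are raw read counts per gene symbol, 1 table per sample. Per the submitters' processing notes, the builds were mm10 and GRCm38 and the tools included HISAT2, HTSeq, cutadapt and DESeq2, along with FastQC and bedtools. No source used here gives their versions, the annotation or the strand setting.

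The 5 summary lines, 25.4% to 28.3% of reads in RARdn and 30.5% to 31.5% in control libraries, entered neither library sizes nor tests. Counts were filtered with filterByExpr, scaled with TMM and tested with edgeR 4.0.16 (R 4.3.3), by the quasi-likelihood test, 2-sided, with genotype as the only term. p-values were adjusted over 19070 genes by the Benjamini-Hochberg method, with calls under 0.05. SE is approximate, from the log2 fold change divided by the root of F, without sign. DESeq2 1.42.0, limma-voom (limma 3.58.1) and other settings were alternatives. No table was a copy of another: chi-square over degrees of freedom was at least 15.2 between libraries of a group.

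Positions came from GENCODE M21, which held 54070 of the symbols as 1 gene each. Members, lists and the naming rule were chosen with earlier results of these data known. Named were the members, the 5 nearest genes on each side, up to 12 called genes within 35 Mb without predicted-gene names, the called and the most abundant uncalled partners, and the 5 genes of highest and of lowest correlation. 1 gene that this rule names is not reported here.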

Additional observations from a re-analysis of the deposited data

How the results depend on the processing

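The number of genes called, 767 as reported, was 2346 without a filter on low counts, 217 with at least 1 CPM in 3 libraries, 56 with a term for Xist, 2253 by DESeq2, and 100 to 2980 when 1 library was left out (130 without RARdn 2, 2980 without RARdn 3, and 343, 100 and 297 without control 1, 2 and 3). Within 35 Mb of Gt(ROSA)26Sor, 46 as reported, the counts were 87, 12, 8, 83 and 9 to 106 under the same settings, lowest and highest without the same libraries. Partners called, 1 as reported, were 3, 0, 0, 3 and 0 to 10. Of the 9 genes, 7 as reported, 4 were called with the term for Xist and 5 to 7 when 1 library was left out. The term for Xist leaves the difference between the groups resting mainly on control 2. In that fit, an effect of sex and the weaker design cannot be told apart. The cause was not tested. Thumpd3, never called, had a log2 fold change of -0.051 with the term for Xist and -0.024 (without control 1) to 0.12 with 1 library left out, and the other 8 genes kept their direction under all 14 alternatives. As the genes were chosen on these counts, this adds no support. With 1 library left out, Slc7a5 ranged over -0.546 to 0.0805 and Plbd2 over -0.127 to 9.05e-05. With the term for Xist none of the 12 other chromosome 6 genes named, nor Ivd, was called. The replicate block gave 817 calls, 1 partner, 7 of the 9 genes and 42 within 35 Mb. Correlations of same-numbered samples' deviations from their group means were 0.0129, -0.0135 and 0.126. With 3 libraries per group, these cannot show whether same-numbered samples shared a litter or a day. Depth limits Tmem72, with 12 to 19 counts in control libraries, and Gt(ROSA)26Sor, with 21 to 37 counts in RARdn libraries. Where at least 1 CPM in 3 libraries was required, each of these genes entered only through the group where it was higher.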
